A study of Mus musculus with 16 samples.

Results

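Genes of the mitochondrial cell death pathway, 10 in all (Bcl2, Bcl2l1, Bcl2l2, Mcl1, Bcl2l11, Bid, Bax, Bak1, Apaf1 and Xiap), were followed in mouse embryonic stem cells with 2, 1 or no working copies of Nat1. They were chosen by name, with earlier results of these data known, as apoptosis regulators. Several of them are reported as translated with the help of the Nat1 protein. All 10 were found among the 21977 genes of the deposited table. Nat1, whose current symbol is Eif4g2 and whose product is also called DAP5 or p97, encodes a relative of the initiation factor eIF4G that lacks the part binding the cap-binding protein eIF4E.

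Mitochondrial apoptosis is set by the balance between members of the BCL2 family. The guardians (BCL2, BCL-XL, BCL-W, MCL1) hold back the effectors BAX and BAK, the BH3-only proteins relieve that restraint, and open effectors let cytochrome c out of the mitochondrion to assemble the APAF1 apoptosome and activate caspases, which XIAP blocks. Embryonic stem cells are known for their low threshold for this route, and DAP5 is described in other cells as supporting internal, cap-independent initiation on mRNAs of this pathway.

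Ribosome profiling was used, in which the mRNA pieces covered by ribosomes (ribosome-protected footprints, RPF) and the total RNA of a culture are sequenced side by side. Footprints report how many ribosomes sit on a gene's mRNA, total RNA reports how much mRNA there is, and their ratio, called translational efficiency (TE) here, reports ribosomes per mRNA. The study profiled 8 cultures, giving 16 libraries. All were grown on gelatin in standard stem cell medium with the cytokine LIF. The WT group was the RF8 line itself, with cultures WTex1 and WTex2. The Nat1+/- group held the heterozygous lines A7, B4 and C1, and the Nat1-/- group the lines B12, B2 and C3. WT therefore stands for 1 line grown in 2 cultures, whereas each mutant culture is a line of its own. The p-values use a spread pooled over the genotypes, to which WT adds only the spread between cultures of a single line.

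Values are normalised reads, that is, reads divided by a depth factor for the library. The RPF libraries held 17480387 to 23777667 reads in genes. Total RNA libraries held 13206434 to 42562496, with WTex1, WTex2 and B12 the deep ones, and 3 reads corresponded to between 1.38 and 4.90 normalised reads. Eif4g2 footprints checked the genotypes. They stood at 17666 and 13862 in WT, at 10261, 7608 and 7275 in Nat1+/- and at 1089, 1114 and 922 in Nat1-/-. The 8 stem cell markers were all detected in every library, with a summed RPF level of 85569 to 107858 in WT and Nat1+/- and of 148621 to 167976 in Nat1-/-. Fibroblast markers, a list of 10 genes, summed to 3601 and 10727 in WT, to 581 to 1545 in Nat1+/- and to 163 to 253 in Nat1-/-. Dcn and Lum, 2 defining fibroblast genes, were at 0 in the RPF libraries of all 3 Nat1-/- cultures and low elsewhere, Dcn at 16.3 and 8.71 in WT and at most 3.04 in Nat1+/-, and Lum at 3.11 and 0 in WT and at most 1.01 in Nat1+/-. Acta2 reached 2976 and Col1a1 5922 in WTex2 and 16.9 and 45.3 at most in Nat1-/-. Of the 7 tested, 5 were lower in Nat1-/- than in Nat1+/-. Both marker lists thus moved with the genotype, and their part in the results below was not tested. In such bulk samples, fewer cells of a type and less RNA per cell cannot be told apart.

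RefSeq promoter windows were matched for all 10 genes. The windows of Mcl1 and Bak1 are shown, since total RNA of both rose in Nat1-/- against Nat1+/-, each from its own chromosome. Over the 8 cultures their total RNA had r of 0.572 (rho 0.429), and in Nat1-/- against WT total RNA of Mcl1 passed and that of Bak1 did not. Both are the 250 bases before the annotated start, in build GRCm38.p6, written 5′ to 3′ on the gene's strand, and capitals mark a GC box (GGGCGG on either strand). The Mcl1 window is chr3:95658471-95658720 on the plus strand and the Bak1 window is chr17:27028628-27028877 on the minus strand.
Mcl1: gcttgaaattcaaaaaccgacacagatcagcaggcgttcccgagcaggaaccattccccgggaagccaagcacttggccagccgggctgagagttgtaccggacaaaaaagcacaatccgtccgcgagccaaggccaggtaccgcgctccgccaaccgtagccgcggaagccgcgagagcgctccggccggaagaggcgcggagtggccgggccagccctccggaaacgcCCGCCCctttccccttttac
Bak1: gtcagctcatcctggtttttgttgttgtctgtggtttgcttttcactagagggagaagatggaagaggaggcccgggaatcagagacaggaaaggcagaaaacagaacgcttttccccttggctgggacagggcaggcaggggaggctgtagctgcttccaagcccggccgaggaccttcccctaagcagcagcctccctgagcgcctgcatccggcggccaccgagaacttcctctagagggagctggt
The Mcl1 window held 1 GC box and the Bak1 window none. The GC content was 64.4% for Mcl1 and 58.4% for Bak1. Across the 15 windows of the 10 genes, 10 held a GC box, against 32.7% of the 32851 windows in the table. Other motifs searched on both strands were a TATA box (TATAAA), found in 1 window of Xiap, the CCAAT box (CCAAT), found in the 2 windows of Bcl2l11, an E-box (CACGTG), found in that of Bax, a STAT-type site (TTCNNNGAA) and a CRE (TGACGTCA), the last pair found in none. Over all windows the shares were 12.4%, 33.8%, 6.02%, 7.02% and 1.55%, in that order. Several genes have more than 1 window, so the windows are not independent, and a match is a description of the letters only.

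**Figure D1:**
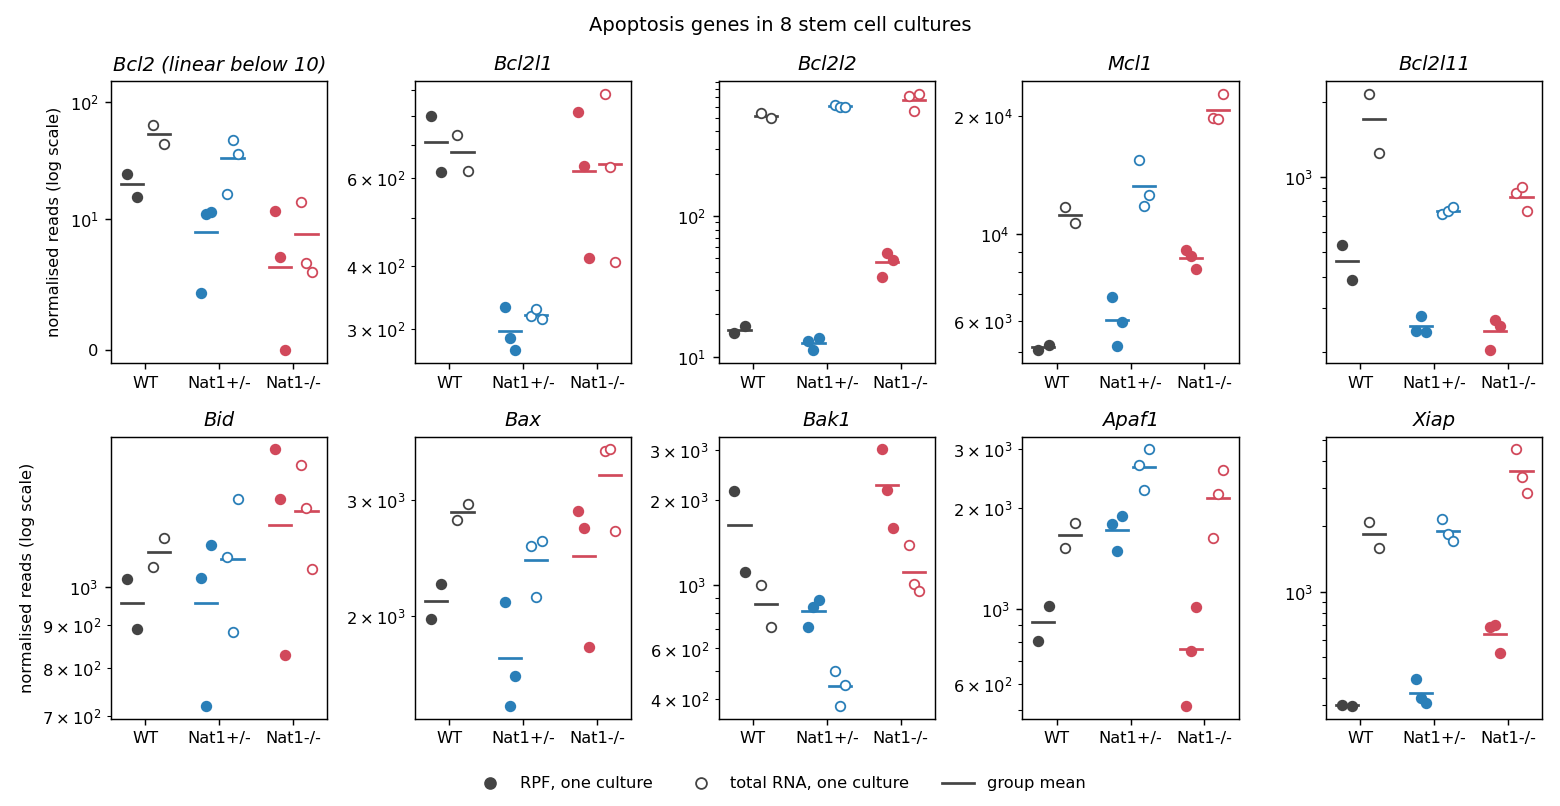
Normalised reads of the 10 genes in each culture, RPF and total RNA, on a log axis. Points are single cultures, coloured by genotype. Mcl1 and Xiap were highest in the 3 Nat1-/- cultures, Apaf1 footprints were highest in the 3 Nat1+/- cultures, and Bcl2l2 footprints rose without a matching rise of its RNA.

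The first question was how the pathway differed between cells with no working Nat1 copy and cells with 1. In Nat1-/- against Nat1+/-, footprints rose on the guardians Bcl2l1, Bcl2l2 and Mcl1, on the effector Bak1 and on the caspase inhibitor Xiap, and fell on Apaf1, so that 6 of 10 genes passed the test. The test was limma on log2(value + 1), with p-values adjusted over all 13110 genes tested for RPF, and all 10 genes reached the mean of 10 needed for testing in both assays. Over all of those genes 36.1% were called, 17.6% higher and 18.6% lower. The 5 higher calls of 10 stand beside that 17.6%. In total RNA 6 of 10 were called as well, 5 higher (Bcl2l1, Mcl1, Bax, Bak1, Xiap) and 1 lower (Bcl2), beside 40% of the 13813 genes tested, 19.8% higher and 20.2% lower. The median of the 10 log2 differences was 0.52 in RPF and 0.31 in total RNA, against 0.02 and 0.01 over all genes tested. Groups did not overlap for 6 of 10 genes in RPF, beside 48.1% of all genes, and for 6 in total RNA, beside 50.2%.

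**Figure D2:**
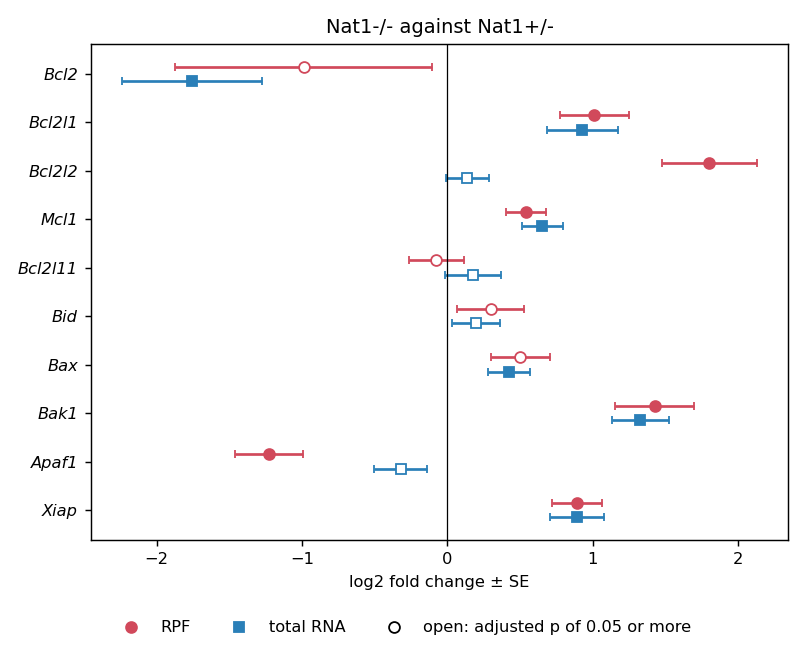
Log2 differences (± SE) of Nat1-/- against Nat1+/- for RPF (circles) and total RNA (squares), filled where the adjusted p was under 0.05. The 2 symbols lie close together for most genes and apart for Bcl2l2, Apaf1 and Bcl2. The rise of Bcl2l2 and the fall of Apaf1 passed only in RPF, and the fall of Bcl2 passed only in total RNA.

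Among the guardians, Bcl2l1 encodes BCL-XL, the family's main long-lived survival protein in many cell types. Its footprints stood at 798 and 616 in WT, at 332, 288 and 272 in Nat1+/- and at 812, 633 and 415 in Nat1-/-. Its total RNA lay at 733 and 620 in WT, at 318, 328 and 314 in Nat1+/-, and at 884, 630 and 407 in Nat1-/-. The heterozygous cultures were low in both measures and overlapped neither of the other groups, whereas WT and Nat1-/- overlapped. Against Nat1+/- the rise in Nat1-/- was 1.01 ± 0.24 in RPF (log2 ± SE, limma adjusted p = 0.00942) and 0.93 ± 0.24 in total RNA (limma adjusted p = 0.0136). The total RNA call was lost without culture B2, and among the 5 cultures with shallow total RNA (0.66, limma adjusted p = 0.0503).

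Mcl1 encodes a guardian whose protein and mRNA both turn over quickly. Its footprints stood at 5039 and 5206 in WT, at 6893, 5174 and 5955 in Nat1+/-, and at 9083, 8807 and 8147 in Nat1-/-. Its total RNA lay at 11705 and 10653 in WT, at 15505, 11767 and 12553 in Nat1+/-, and at 19811, 19746 and 22841 in Nat1-/-. The 3 Nat1-/- cultures were the 3 highest in both measures. Footprints were 1.44-fold and total RNA 1.57-fold the Nat1+/- mean, with limma differences of 0.54 ± 0.14 (adjusted p = 0.0136) and 0.65 ± 0.14 (adjusted p = 0.00476). The RPF call was lost without B2.

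Bcl2l2 encodes BCL-W, a guardian best known from the testis and nervous system. Its footprints were few, at 14.8 and 16.5 in WT, at 13.0, 11.1 and 13.6 in Nat1+/-, and at 36.7, 55.1 and 49.0 in Nat1-/-. In reads these were 19 and 17, then 12, 11 and 13, then 34, 62 and 43. Every Nat1-/- culture was above every other culture, by a factor of 3.72 between the means of Nat1-/- and Nat1+/-. Total RNA stood at 535 and 498 in WT, at 614, 595 and 598 in Nat1+/-, and at 709, 556 and 738 in Nat1-/-, with Nat1+/- and Nat1-/- overlapping. Footprints rose by 1.80 ± 0.33 (log2 ± SE, limma adjusted p = 0.00301). For total RNA the difference was 0.14 ± 0.15 with a 95% interval of -0.19 to 0.47 (limma adjusted p = 0.491).

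Bcl2, the founding guardian, was close to the detection floor. Footprints lay at 24.1 and 15.5 in WT, at 4.34, 11.1 and 11.5 in Nat1+/-, and at 11.9, 7.10 and 0 in Nat1-/-, with C3 without a single read, where 3 reads would be worth 3.42 normalised reads. Total RNA lay at 63.1 and 43.6 in WT, at 16.3, 47.5 and 35.7 in Nat1+/-, and at 14.0, 6.66 and 5.96 in Nat1-/-. In total RNA all 3 Nat1-/- cultures lay under the other 5, the lower 2 of them on 5 and 4 reads. The fall against Nat1+/- was -1.76 ± 0.48 on the log2 scale (limma adjusted p = 0.0159), and it no longer passed without B4, without C1 or without B2. The RPF difference of -0.99 ± 0.89 did not pass (limma adjusted p = 0.405).

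Both BH3-only genes kept overlapping values in the 2 mutant genotypes. Bcl2l11 encodes BIM, a direct activator of the effectors that binds all guardians. It had footprints of 534 and 387 in WT, of 242, 278 and 239 in Nat1+/- and of 203, 267 and 254 in Nat1-/-. The mutant cultures all lay under WT and overlapped one another, and the RPF difference between them was -0.07 ± 0.19, with a 95% interval of -0.49 to 0.34 (limma adjusted p = 0.777). Bid links death receptors to mitochondria once caspase 8 has cut its protein. Bid footprints stood at 1021 and 889 in WT, at 1024, 720 and 1122 in Nat1+/-, and at 1460, 1272 and 827 in Nat1-/-, and all 3 groups overlapped. Its RPF difference was 0.30 ± 0.23 (limma adjusted p = 0.341) and its total RNA difference 0.19 ± 0.17 (limma adjusted p = 0.374).

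The effectors BAX and BAK form the pore in the outer mitochondrial membrane. Bak1 footprints stood at 2142 and 1117 in WT, at 712, 836 and 889 in Nat1+/-, and at 3008, 2161 and 1589 in Nat1-/-. Its total RNA lay at 1001 and 716 in WT, at 498, 377 and 448 in Nat1+/-, and at 1382, 1011 and 957 in Nat1-/-. The heterozygous cultures were again the lowest, below all 5 others in both measures. Against them Bak1 rose in Nat1-/- by 1.43 ± 0.27 in RPF (limma adjusted p = 0.00376) and by 1.33 ± 0.19 in total RNA (limma adjusted p = 7.59e-04), or 2.77-fold and 2.53-fold between means. Both calls held without any single culture of either group.

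Bax moved less. Its footprints lay at 1979 and 2233 in WT, at 2097, 1458 and 1618 in Nat1+/-, and at 2895, 2720 and 1791 in Nat1-/-. Total RNA stood at 2803 and 2963 in WT, at 2554, 2138 and 2600 in Nat1+/-, and at 3563, 3587 and 2694 in Nat1-/-. Culture C3 lay near the heterozygous cultures in both measures. The rise in total RNA of 0.43 ± 0.15 passed (limma adjusted p = 0.0402), although leaving out A7, B4, C1, B12 or B2 each ended that call. The RPF difference of 0.50 ± 0.20 did not pass (limma adjusted p = 0.0794), and passed without C3.

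Downstream of the mitochondrion, Apaf1 encodes the scaffold of the apoptosome. Its footprints stood at 803 and 1023 in WT, at 1799, 1489 and 1891 in Nat1+/-, and at 516, 751 and 1016 in Nat1-/-. The 3 heterozygous cultures were the highest, and WT and Nat1-/- overlapped. Total RNA lay at 1525 and 1807 in WT, at 2692, 2267 and 2990 in Nat1+/-, and at 1630, 2205 and 2602 in Nat1-/-, with the mutant groups overlapping. Footprints were 2.27-fold lower in Nat1-/- than in Nat1+/-, a limma difference of -1.23 ± 0.23 (adjusted p = 0.00359). For total RNA the difference was -0.32 ± 0.18, with a 95% interval of -0.73 to 0.08 (limma adjusted p = 0.185). Without C3 it passed (-0.47, limma adjusted p = 0.0477).

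Xiap encodes an inhibitor that binds active caspases. Footprints lay at 301 and 297 in WT, at 397, 322 and 305 in Nat1+/-, and at 683, 700 and 522 in Nat1-/-. Total RNA lay at 2090 and 1591 in WT, at 2160, 1841 and 1714 in Nat1+/-, and at 4537, 3372 and 2865 in Nat1-/-. The 3 Nat1-/- cultures were the highest in both measures and overlapped no other. Against Nat1+/- the rise was 0.89 ± 0.17 in RPF (limma adjusted p = 0.0040) and 0.89 ± 0.19 in total RNA (limma adjusted p = 0.00431). Both calls held without any single culture of either group.

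The next question was whether footprints moved beyond RNA, the measure the study's title is about. The ratio of RPF to total RNA differed widely among the 10 genes. Set against 12933 genes on the ratio of their mean levels, Bcl2l2 lay above only 0.139% of genes with a ratio of 0.0433, Xiap above 2.41% and Bcl2l11 above 8.27%, whereas Bak1 lay above 95.5% with a ratio of 1.95. These positions are descriptions of these libraries. They were not corrected for length, since no transcript lengths were used, and do not rank how well the mRNAs are translated. For most of the 10 genes, RPF and total RNA ran together over the 8 cultures, with Pearson's r from 0.767 for Bcl2 to 0.985 for Bcl2l1 outside Bcl2l2, where r was 0.455.

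**Figure D3:**
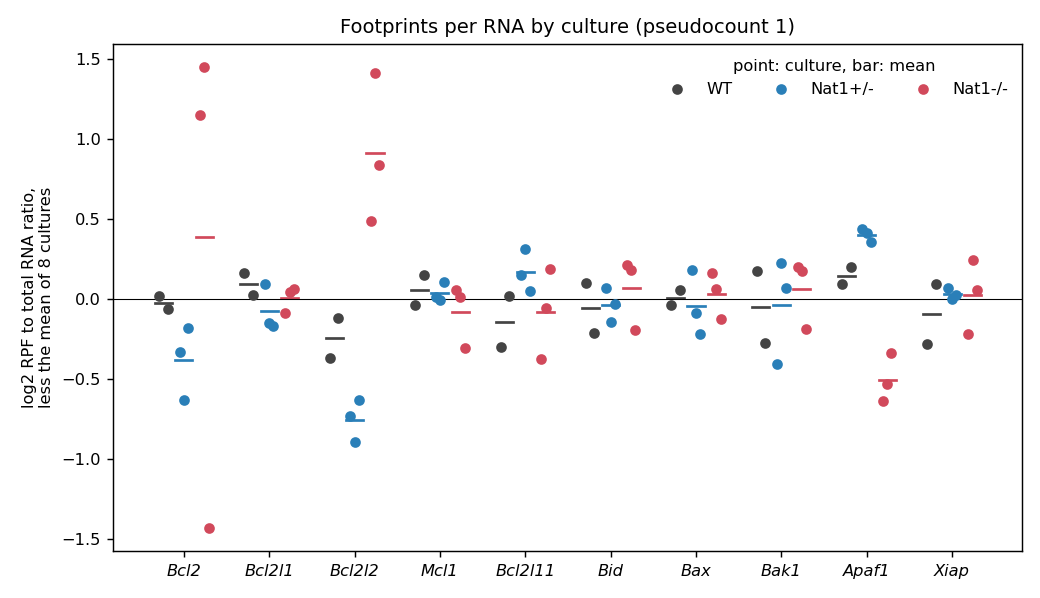
Log2 ratio of RPF to total RNA (each value plus 1) of the 10 genes in every culture, less the gene's mean over the 8 cultures. Points are cultures and bars are genotype means. The 3 Nat1-/- cultures lie above the others for Bcl2l2 and below the others for Apaf1, and the genotypes overlap for Xiap.

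The test of TE asked, in 1 limma fit of RPF and total RNA libraries, whether the genotype difference was unequal in the 2 assays, over 12933 genes. In Nat1-/- against Nat1+/-, 1 of 10 genes passed, Bcl2l2, beside 0.58% of all genes tested (0.549% lower and 0.0309% higher, the latter only 4 genes with Bcl2l2 among them). Its ratio lay at 0.0276 and 0.0330 in WT, at 0.0212, 0.0187 and 0.0228 in Nat1+/-, and at 0.0518, 0.0991 and 0.0664 in Nat1-/-. No ratio of the other groups reached those of Nat1-/-. The log2 difference was 1.66 ± 0.27 (limma adjusted p = 0.0150). The call rests on 11 to 62 footprint reads a culture and was lost without A7, B4, C1 or B2, with values of 1.41 to 1.88 over the 6 cultures left out in turn. It was also lost among the 5 cultures with shallow total RNA (1.88, limma adjusted p = 0.0691).

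Apaf1 was the other gene whose groups did not overlap, 2 of 10 beside 36.9% of all genes. Its ratio lay at 0.527 and 0.566 in WT, at 0.668, 0.657 and 0.633 in Nat1+/-, and at 0.317, 0.341 and 0.391 in Nat1-/-. The Nat1-/- cultures held the lowest ratios and the Nat1+/- cultures the highest. The log2 difference of -0.91 ± 0.32 did not pass (limma adjusted p = 0.261). The RPF and total RNA libraries of 1 culture share their cells, and with a term for the culture in the fit the same difference had an SE of 0.10 and passed (limma adjusted p = 5.1e-04). With that term Bcl2l2 passed too (1.66 ± 0.23, limma adjusted p = 0.00168), so that 2 of 10 genes were called beside 15.8% of all genes (6.49% higher, 9.26% lower).

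The ratio of Xiap stood at 0.144 and 0.187 in WT, at 0.184, 0.175 and 0.178 in Nat1+/-, and at 0.151, 0.208 and 0.182 in Nat1-/-, with all groups overlapping. Its TE difference between the mutant genotypes had a 95% interval of -0.55 to 0.54 (limma adjusted p = 0.999), which the culture term narrowed to -0.30 to 0.29. Bcl2 is the gene of the set where TE was least well measured. Its ratio lay at 0.382 and 0.356 in WT, at 0.266, 0.234 and 0.324 in Nat1+/-, and at 0.850, 1.07 and 0 in Nat1-/-, and the interval ran from -1.53 to 3.07. For the remaining 6 genes, Bcl2l1, Bcl2l11, Mcl1, Bax, Bak1 and Bid, the TE differences lay between -0.25 and 0.10, with adjusted p-values from 0.862 to 0.983 by limma.

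Comparison with WT asked which of these differences separated mutant from unmodified cells. It shares the Nat1-/- libraries with the comparison above and is therefore not independent of it. In Nat1-/- against WT, 4 of 10 genes were called in RPF, beside 34.8% of all genes (16.5% higher, 18.3% lower): Bcl2l2, Mcl1 and Xiap rose and Bcl2l11 fell. Mcl1 was higher by 0.76 ± 0.15 in RPF (limma adjusted p = 0.00446) and Xiap by 1.07 ± 0.19 (limma adjusted p = 0.00247). In RPF both calls held without any single culture. Bcl2l2 footprints were higher by 1.51 ± 0.37 (limma adjusted p = 0.0108), a call lost without WTex1, WTex2 or B2. Groups did not overlap for 5 of 10 genes in RPF, beside 59.6%, and for 5 in total RNA, beside 60.1%.

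In total RNA 4 of 10 passed in Nat1-/- against WT, beside 35% of all genes (16.2% higher, 18.9% lower). Mcl1 rose by 0.89 ± 0.15 (limma adjusted p = 0.00173) and Xiap by 0.95 ± 0.21 (limma adjusted p = 0.00572), the latter call lost without WTex2. Bcl2 was lower, -2.53 ± 0.54 (limma adjusted p = 0.00503), and so was Bcl2l11, -0.98 ± 0.21 (limma adjusted p = 0.00585). WTex1 carried the highest Bcl2l11 RNA, 2150 against 1252 in WTex2 and 712 to 911 in the mutant cultures. Without WTex1, the calls on Bcl2 and Bcl2l11 total RNA and on Bcl2l11 footprints were lost. Bcl2l1, Bax, Bak1, Bid and Apaf1 passed in neither measure, and Nat1-/- Bcl2l1 footprints differed from WT by -0.23 ± 0.26 (limma adjusted p = 0.531). Without B12, Apaf1 total RNA also passed (0.53, limma adjusted p = 0.0344).

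**Figure D4:**
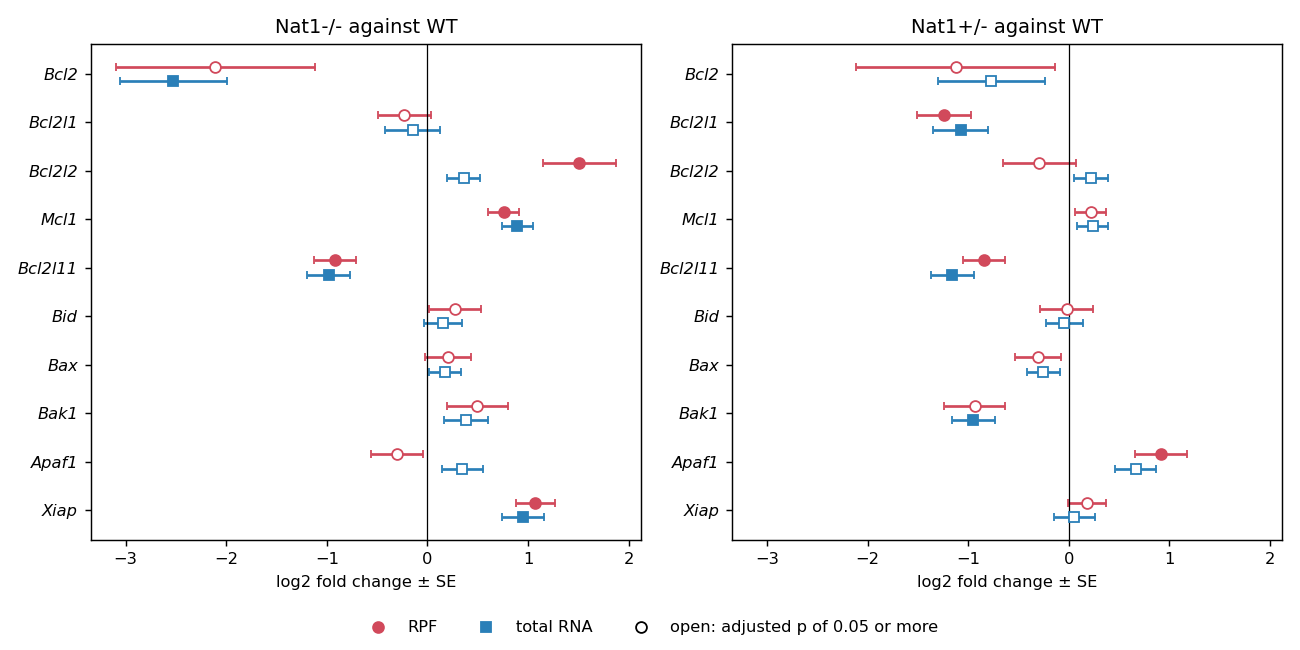
Log2 differences (± SE) of the 2 mutant genotypes against WT for RPF (circles) and total RNA (squares), filled where the adjusted p was under 0.05. Bcl2l1 and Bak1 lie well below 0 in Nat1+/- and within 0.5 of it in Nat1-/-, and Bcl2l11 lies below 0 in both panels.

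In Nat1+/- against WT, RPF calls were 3 of 10, beside 10.5% of all genes (5.35% higher, 5.13% lower). Bcl2l1 fell by 1.24 on the log2 scale with an SE of 0.26 (limma adjusted p = 0.0256), or to 42.0% of the WT mean. Bcl2l11 fell by 0.85 with an SE of 0.21 (limma adjusted p = 0.0363). Apaf1 was higher by 0.92 ± 0.26 with a limma adjusted p that only just passed the threshold of 0.05, and leaving out any single culture of the 2 groups ended the call. In total RNA 3 of 10 were called, beside 10% of all genes (4.6% higher, 5.41% lower), all of them lower: Bcl2l1 (-1.07 ± 0.27, limma adjusted p = 0.0376), Bcl2l11 (-1.16 ± 0.21, limma adjusted p = 0.0164) and Bak1 (-0.95 ± 0.22, limma adjusted p = 0.0283). For Bak1 footprints the difference was -0.93 ± 0.30 (limma adjusted p = 0.0743). Groups did not overlap for 7 of 10 genes in each measure, beside 55.3% in RPF and 54.6% in total RNA. The Bcl2l1 and Bak1 calls in total RNA were lost whichever culture was left out, and the Bcl2l1 and Bcl2l11 footprint calls were kept only without B4. The Bcl2l11 total RNA call was lost without WTex1, WTex2 or A7. Both WT total RNA libraries were deep (33562445 reads or more) and all Nat1+/- ones shallow (14771784 or fewer). Depth and genotype therefore cannot be told apart in total RNA and TE of this comparison.

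No gene of the 10 passed for TE against WT without the culture term, beside 0.00773% of all genes for Nat1-/- and 0% for Nat1+/-. Ratios did not overlap for 2 of 10 genes in Nat1-/-, beside 27.2%, and for 4 in Nat1+/-, beside 43.8%. By an unadjusted p under 0.05, 1 of 10 passed in Nat1-/- (Bcl2l2, 1.15 ± 0.30, limma adjusted p = 0.545) and 0 in Nat1+/-, and edgeR and DESeq2 each called 0. With the culture term Apaf1 passed in Nat1-/- against WT (-0.65 ± 0.11, limma adjusted p = 0.0210), 1 of 10 beside 1.22% of all genes (0.99% lower). In Nat1+/- against WT the culture term called 0 of 10 beside 1.13%, with Apaf1 at 0.26 ± 0.11 (limma adjusted p = 0.210).

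The 3 Nat1-/- lines were not alike. C3 had the lowest footprint level for 7 of the 10 genes and B12 the highest for 6. Bcl2l1 footprints differed 1.96-fold between these 2 lines and Bak1 footprints 1.89-fold, whereas Apaf1 ran the other way, 1.97-fold higher in C3. Mcl1 footprints varied least, by 1.11-fold. In total RNA C3 was lowest for 7 genes and B12 highest for 5. The same counts over all genes were not made for either measure, and some of the 10 genes moved together, as given below. B12 was also the 1 deep total RNA library among the Nat1-/- cultures, and the part of depth was not tested.

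Some pairs of genes moved together over the 8 cultures, described here without a test because the cultures share genotypes. Mcl1 and Xiap footprints had a Pearson's r of 0.963 and a Spearman's rho of 0.857. Bcl2l1 and Bak1, a guardian and the effector it can bind, had r of 0.864 in RPF and 0.872 in total RNA (rho 0.857 and 0.881). Other pairs ran in opposite directions. Apaf1 footprints had r of -0.959 with Bak1 and of -0.919 with Bcl2l1 (rho -0.929 for both), and Bcl2 and Mcl1 total RNA had r of -0.954 (rho -0.905). The genes whose log2 RPF pattern was most like that of Bcl2l2, among 10956 genes with a mean of at least 50, were Decr2 (r = 0.994), Ccdc189 (r = 0.989) and Pdia3 (r = 0.988). Of those genes, 524 or 4.78% exceeded r of 0.9.

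Other genes of the pathway were grouped by role, and their calls in Nat1-/- against Nat1+/- are counted for RPF beside the 17.6% higher and 18.6% lower over all genes. None of the 4 other guardians (Bcl2a1a, Bcl2a1b, Bcl2a1d, Bcl2l10) reached the mean of 10 that testing required. Of 5 other BH3-only genes tested, 1 rose and 1 fell. Bad, whose product is switched off by survival kinases, rose by 1.50 ± 0.22 (limma adjusted p = 0.00113), from 117, 120 and 137 in Nat1+/- to 453, 330 and 296 in Nat1-/-. Bbc3, the p53 target PUMA, fell by 0.90 with an SE of 0.16 (limma adjusted p = 0.00286), from 687, 618 and 789 to 328, 417 and 375. For both genes the groups did not overlap. Bik and Pmaip1 did not pass (0.54 ± 0.27 and -0.41 ± 0.27).

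Among 4 divergent family members tested, Bcl2l14 was lower (-1.11 ± 0.26, limma adjusted p = 0.00934) and the others did not pass. Of 4 outer membrane partners, Vdac3, a voltage-dependent channel, was lower (-0.53 ± 0.11, limma adjusted p = 0.00548). Of 6 apoptosome and caspase genes counted, 1 fell in RPF and none rose. Casp6, an executioner caspase, went from 332, 359 and 373 footprints in Nat1+/- to 141, 144 and 249 in Nat1-/- (-1.04 ± 0.24, limma adjusted p = 0.00911), with no overlap. In total RNA it also fell (-1.07 ± 0.27, limma adjusted p = 0.0116). Casp9, the initiator that APAF1 recruits, was higher in total RNA (0.51 ± 0.16, limma adjusted p = 0.0297), a call lost without B4, C1, B2 or C3.

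Among the inhibitors of apoptosis (IAP) 2 genes rose and none fell, and their antagonists rose as well. Of 4 other IAP genes tested, Birc5, which encodes the mitotic protein survivin, rose (0.57 ± 0.13, limma adjusted p = 0.00867). Birc3 rose too (0.74 ± 0.24, limma adjusted p = 0.0348), a call lost without B4, C1, B2 or C3. Birc2 and Birc6 did not pass (0.14 ± 0.13 and -0.45 ± 0.25). All 3 IAP antagonists tested rose. Xaf1, which encodes a binding partner of XIAP, went from 229, 314 and 318 footprints in Nat1+/- to 1403, 1621 and 1934 in Nat1-/- (2.53 ± 0.18, limma adjusted p = 3.16e-05). Htra2, a mitochondrial protease, rose by 1.09 ± 0.24 (limma adjusted p = 0.00709) and Diablo, which encodes SMAC, by 0.56 ± 0.14 (limma adjusted p = 0.0128). In total RNA 2 of these 3 passed, Diablo being the exception (0.23 ± 0.12, limma adjusted p = 0.135).

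**Figure D5:**
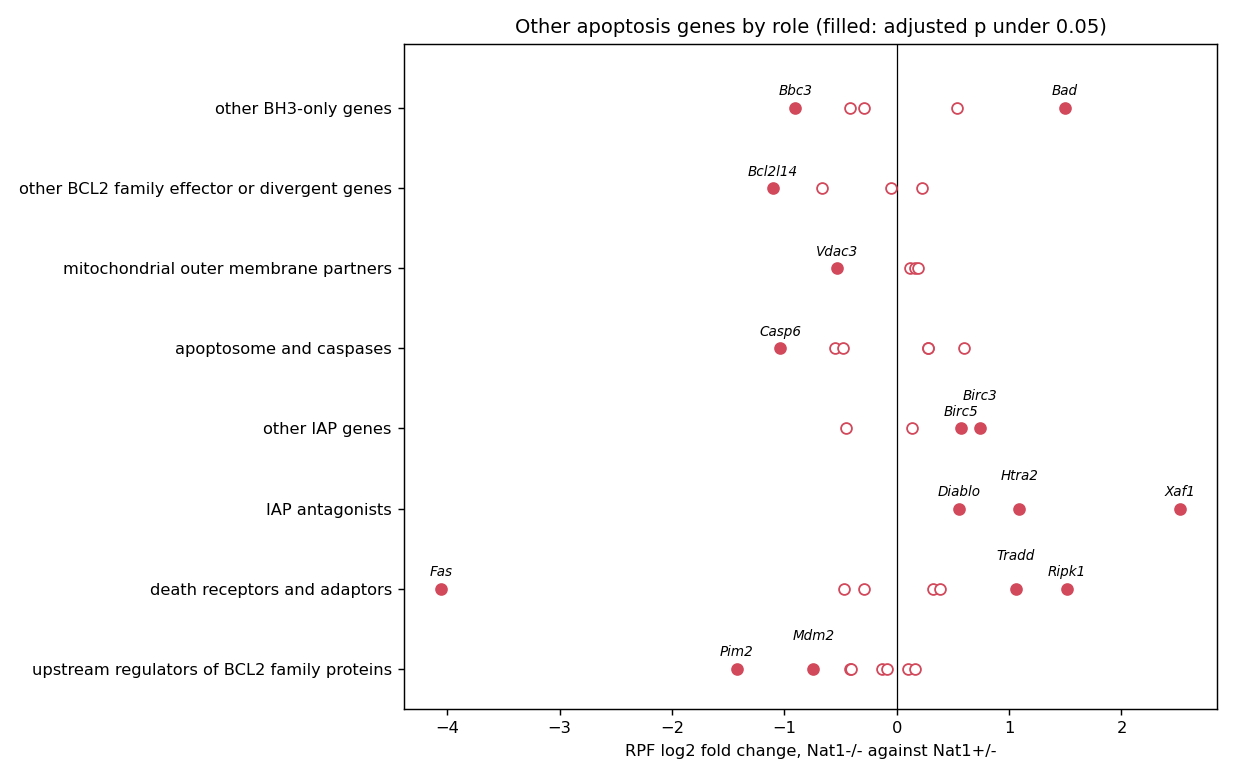
RPF log2 differences of Nat1-/- against Nat1+/- for the other apoptosis genes tested, 1 row per role, filled and named where the adjusted p was under 0.05. All 3 IAP antagonists lie to the right, and Casp6 lies to the left.

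Of 7 death receptor genes, 2 rose and 1 fell. Ripk1, the kinase that death receptor complexes recruit, rose by 1.51 ± 0.19 (limma adjusted p = 5.36e-04) and the adaptor Tradd by 1.06 ± 0.23 (limma adjusted p = 0.00661). Fas had 8, 27 and 33 footprint reads in Nat1+/- and 0, 0 and 1 in Nat1-/-, where every library lay under the floor of 3 reads (limma adjusted p = 0.00192). Tnfrsf10b did not pass (-0.47 ± 0.17, limma adjusted p = 0.0553). Of 8 upstream regulators none rose and 2 fell, Pim2, a survival kinase that phosphorylates BAD (-1.42 ± 0.33, limma adjusted p = 0.00862), and Mdm2, the ubiquitin ligase of p53 (-0.74 ± 0.15, limma adjusted p = 0.00528). Fbxw7, which encodes a ubiquitin ligase subunit acting on MCL1, rose in total RNA (0.61 ± 0.12, limma adjusted p = 0.00349) and not in RPF (-0.13 ± 0.15). Foxo3, a transcription factor of BH3-only genes, did likewise (0.73 ± 0.16 in total RNA, limma adjusted p = 0.0061, and 0.10 ± 0.18 in RPF). Their TE differences did not pass without the culture term (limma adjusted p = 0.0679 for Fbxw7 and 0.363 for Foxo3), and both were lower with it (-0.74 ± 0.12, limma adjusted p = 0.0040, and -0.64 ± 0.09, limma adjusted p = 0.00163).

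The genes reported elsewhere as DAP5 clients, with Eif4g2 itself, made a list of 8. In RPF, Xiap, Myc and Cdk1 rose and Apaf1 and Eif4g2 fell, while Bcl2, Birc2 and Trp53 did not pass. Over all genes 17.6% were higher and 18.6% lower. Eif4g2 is the targeted gene, so its footprint fall was fixed by the genotype. The list's median log2 difference was 0.03, against 0.02 over all genes tested. Myc footprints rose by 1.42 ± 0.39 (limma adjusted p = 0.0196), and C3 with 646 lay within the Nat1+/- range of 420 to 665. That call was lost without A7, B4 or B2. Cdk1 rose by 0.44 ± 0.14 (limma adjusted p = 0.0315), and leaving out A7, B4, C1, B12 or B2 ended it. In TE the list held 1 call without the culture term, Eif4g2 itself (-2.38 ± 0.39, limma adjusted p = 0.0155), beside 0.58% of all genes. With that term Apaf1, given above, and Myc (-0.55 ± 0.15, limma adjusted p = 0.0293) were lower as well, beside 9.26% of all genes. Against WT with the term, Myc TE differed by 0.05 ± 0.16 in Nat1-/- (limma adjusted p = 0.943). In Nat1+/- the Myc difference from WT was 0.60 ± 0.16 (limma adjusted p = 0.0776).

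The culture term changed further TE calls among the listed genes in Nat1-/- against Nat1+/-, beside 6.49% higher and 9.26% lower over all genes. Xaf1 (1.00 ± 0.18, limma adjusted p = 0.00507), Cycs, which encodes cytochrome c (0.75 ± 0.18, limma adjusted p = 0.0195), and the channel gene Vdac2 (0.28 ± 0.08, limma adjusted p = 0.0372) were higher. Pim2 (-0.52 ± 0.15, limma adjusted p = 0.0347), Mdm2 (-0.42 ± 0.11, limma adjusted p = 0.0257) and Usp9x, which encodes a deubiquitinase of MCL1 (-0.35 ± 0.10, limma adjusted p = 0.0337), were lower. Among the markers, Sox2 and Sall4 were lower (-0.51 ± 0.12 and -0.49 ± 0.09) and Acta2 was higher (1.82 ± 0.54). None of these TE differences passed without the term, where the limma adjusted p ran from 0.161 for Xaf1 to 0.841 for Pim2. Acta2 levels in Nat1-/- were low, as given above, and its total RNA difference from Nat1+/- ran from -6.69 to -2.58 over the alternative fits. Against WT with the term, Sox2, Sall4 and Acta2 did not pass in Nat1-/- (-0.26 ± 0.14, 0.08 ± 0.10 and 1.67 ± 0.60). Neither did Cycs (0.18 ± 0.20), Vdac2 (0.22 ± 0.09), Pim2 (-0.33 ± 0.16), Mdm2 (-0.38 ± 0.12) or Usp9x (-0.23 ± 0.11). Xaf1 passed against WT with the term in Nat1-/- (2.03 ± 0.20, limma adjusted p = 0.00114) and in Nat1+/- (1.03 ± 0.20, limma adjusted p = 0.0456). With the term, Sall4 was higher in Nat1+/- than in WT (0.57 ± 0.10, limma adjusted p = 0.0443).

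In RefSeq, 4 of the 10 genes share genomic sequence with another gene that the table also lists, Bcl2l1 with Cox4i2, Bcl2l11 with Acoxl, Bak1 with Ggnbp1 and Apaf1 with Ikbip. How reads in such overlaps and their strand were counted was not stated in those sources, so the split between partners is uncertain. For Bcl2l2, Mcl1, Bax and Xiap that table held no overlapping gene, but the annotation the reads were counted with was not used here. The partners' RPF values over the 8 cultures, not corrected for length, ran from 75.4 to 152 for Cox4i2, from 6.48 to 35.8 for Acoxl, from 93.9 to 167 for Ggnbp1 and from 513 to 1129 for Ikbip.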

How the data were processed

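Ribosome footprints and total RNA of 8 mouse embryonic stem cell cultures (16 libraries, TruSeq Ribo Profile kit, per the labels) were analysed from the table the authors deposited. Per the submitters' processing notes the tools included TopHat2 2.1.0 and Bowtie2 2.2.8, HTSeq 0.6.1, DESeq2, cutadapt 1.9.1 and bcl2fastq 2.17, and the builds named are GRCm38.p4 and mm10. The deposited values are a signal per gene, read counts divided by 1 size factor per library, as the values show: 100% of them came out as whole reads within 0.001.

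Genes with a mean of at least 10 in an assay were tested with limma 3.58.1 in R 4.3.3 on log2(value + 1), with a trended prior, the 3 genotypes in 1 fit, 2-sided p-values and Benjamini-Hochberg adjustment over all genes tested. The log2 scale with a pseudocount of 1 understates changes of low genes. TE was the difference between RPF and total RNA in 1 fit over all 16 libraries. The RPF and total RNA libraries of a culture deviated together from their group means (r from 0.384 to 0.821, 8 of 8 matched best with their own culture), so the fit with a culture term is given where it changes a call. Exact permutation tests of 3 against 3 or 3 against 2 cultures cannot go below p = 0.1 and are not quoted. On the recovered reads edgeR 4.0.16 (quasi-likelihood) called 2115 genes higher and 2507 lower in RPF and 2541 and 2855 in total RNA for Nat1-/- against Nat1+/-, and DESeq2 1.42.0 was run too. Other alternatives were pseudocounts of 0.5 and 5, a minimum mean of 50 or none, equal library sums, no trend, a block by replicate number, the 5 cultures with shallow total RNA, and each culture left out in turn. Scripts were tested on simulated data.

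The 10 genes and all lists were chosen with earlier results of these data known. From each list, the genes to name were the 4 with the smallest adjusted p in RPF or total RNA for Nat1-/- against Nat1+/- and any called in TE, of which some that did not pass are left to the figure. Cdk1, Birc2 and Trp53 were added, after their values were seen, to complete the list of reported clients, and so were Cycs, Vdac2 and Usp9x, called in TE only with the culture term. The genes whose pattern is given as like that of Bcl2l2 are the 3 of highest Pearson correlation. A gene of the apoptosome and caspase list is not reported here. Of the listed genes, 2 were not found in the table by the symbols used. Promoter sequences are from RefSeq, build GRCm38.p6, and no transcript lengths were used. Levels are therefore not compared between genes, and the positions of genes on the RPF to total RNA ratio are not corrected for length.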

Additional observations from a re-analysis of the deposited data

How the results depend on the processing

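Of 1091 recomputed values, 994 kept their direction and their side of the threshold, 68 were weaker, 8 stronger and 21 had the opposite sign. None of those 21 was called, and their largest size was 0.17 (log2).

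Counts of the 10 genes called changed as follows. With eBayes without trend, Nat1+/- against WT fell from 3 to 0 in RPF and from 3 to 1 in total RNA, and a block by replicate number gave 0 and 1 as well. Same-numbered cultures of different genotypes correlated from -0.13 to 0.25 in RPF and from -0.19 to 0.33 in total RNA. In both assays the highest value between genotypes was that of WTex1 with B12, which share a number. With 2 WT cultures the deviations mirror each other, so these values cannot exclude a pairing by number. For TE in Nat1-/- against Nat1+/-, the count of 1 became 0 with a mean of at least 50, which leaves Bcl2l2 untested, 0 in the 5 cultures with shallow total RNA, which are fewer samples, and 2 with the replicate block by culture. That block by culture gave 1 in place of 0 for Nat1-/- against WT. With single cultures left out, the RPF count ran from 0 to 2 in Nat1+/- against WT and from 2 to 5 in Nat1-/- against WT. The total RNA count ran from 0 to 1 and from 2 to 5 in the same comparisons and from 3 to 7 in Nat1-/- against Nat1+/-, where the TE count ran from 0 to 1. The cause was not tested beyond the fewer samples.

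Single calls were also lost as follows. Bax total RNA in Nat1-/- against Nat1+/- did not pass with no filter (adjusted p = 0.0504 by limma), without trend (0.0753), with the replicate block (0.0615) or in the shallow cultures (0.126). Bcl2l1 total RNA in Nat1+/- against WT did not pass with no filter (0.0544). Apaf1 footprints in Nat1+/- against WT did not pass with a pseudocount of 0.5 (0.0512), no filter (0.0577), equal library sums (0.0559) or edgeR (0.0555). DESeq2 added Bak1 footprints (0.0155) and Apaf1 total RNA (0.0220) there.

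Opposite signs among the values counted above were as follows, none of them of a called difference. For Nat1+/- against WT, Bid footprints gave 0.0051 with edgeR and 0.034 with the replicate block, and -0.15 to 0.17 with cultures left out. Xiap total RNA gave -0.034 with equal library sums, and -0.14 to 0.25 with cultures left out, and Bid total RNA -0.17 to 0.10. For Nat1-/- against WT, Bcl2l1 total RNA gave 0.0082 with the replicate block and -0.41 to 0.15 with cultures left out, and Bcl2l1 footprints -0.45 to 0.033. For Nat1-/- against Nat1+/-, Bcl2l11 footprints gave 0.045 in the shallow cultures and -0.15 to 0.045 with cultures left out, and Bcl2 footprints, at -0.99 with all cultures, -1.71 to 0.13. Xiap TE gave 0.0010 with edgeR and 0.12 in the shallow cultures, and -0.11 to 0.12 with cultures left out, as against -0.011 to 0.19 for Bax TE and -0.084 to 0.23 for Bak1 TE.

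Over all genes, calls in Nat1+/- against WT moved from 1374 to 2519 with DESeq2, 481 without trend and 162 with the replicate block in RPF, and from 1383 to 2559, 549 and 190 in total RNA. TE calls in Nat1-/- against Nat1+/- moved from 75 to 2037 with the block by culture, 398 with DESeq2, 128 with equal sums, 28 without trend, 131 with the block by replicate number and 6 in the shallow cultures. Equal library sums shifted the median of all genes by -0.12 in total RNA and -0.11 in RPF for Nat1-/- against WT and moved the share of higher calls from 47.4% to 36.2% (RPF) and from 46.1% to 34.2% (total RNA) for Nat1-/- against WT, and from 46.0% to 28.1% for total RNA in Nat1+/- against WT. Bcl2 footprints rested on 0 to 31 reads a culture and those of Bcl2l2 on 11 to 62.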
